A study of Homo sapiens with 12 samples.

Results

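Nucleolar ribosome biogenesis factors are the proteins that turn the pre-ribosomal RNA into the RNAs of the ribosome and build the subunits around them. A list of 54 such genes was examined, and each was represented by its brightest probe, the one with the highest mean log2 intensity over the 12 arrays. A named probe was at hand for 33 of the 54 genes, out of 7452 named genes in all. The other 21 genes, among them NPM1, NOP56, NOP58, NHP2, NOP10, NOP2 and GNL3, were not analysed here. The 33 genes had 43 probes between them.

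The samples were HCT116 cells, a colorectal cancer line described in the study as wild-type for p53. They were reverse transfected for 24 h with 5 nM of siLRH-1 #1, siLRH-1 #2 or the non-targeting control siRNA (siLUC). Each of the 3 groups held 4 arrays (Illumina HumanHT-12 v4 BeadChips), which the methods describe as independent biological replicates. The study asked which genes LRH-1 (NR5A2), an orphan nuclear receptor, controls in these cells. The knockdown was transient and in 1 cell line, and the NR5A2 transcript was not analysed here.

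The values are log2 intensities that the authors had quantile-normalized, so a shift of most transcripts in one direction cannot be seen. Array medians lay between 6.49 and 6.50, and arrays of one group correlated at 0.996 or more. The mean log2 intensities of the 8 measured colon epithelial markers lay between 6.29 and 12.54, with KRT19, EPCAM and KRT8 over 11, CDH1, CDX2 and KRT18 between 8 and 9, and CLDN4 and CLDN3 under 7. The 4 measured leukocyte markers lay between 6.11 and 7.95 and the 3 fibroblast and endothelial markers between 5.97 and 6.33. VIL1, CDX1, LGALS4 and PTPRC were not analysed here. In the principal components, 5 arrays (siLUC replicate 2, siLRH-1 #1 replicate 3 and siLRH-1 #2 replicates 2, 3 and 4) lay apart from the other 7 within their groups. Between these sets, which were picked from these same values, 110 of 16381 probes and 0 of the 33 members passed a test (limma, adjusted p under 0.05). That count does not show that the members were alike in both sets. With 4 arrays a group, the number of arrays sets how precise a value can be. As each array measured RNA of a whole culture, fewer cells with a transcript and less of it per cell cannot be told apart.

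As background, ribosomal RNA is transcribed in the nucleolus as a long precursor, which is modified, folded and cut while ribosomal proteins join it. Small nucleolar ribonucleoproteins (snoRNPs) of the box C/D class methylate the RNA, and those of the box H/ACA class turn uridines into pseudouridines. The small subunit processome then shapes the small subunit, and a separate set of helicases, GTPases and nucleases builds the large one. These genes are active in growing cells, and many of them are known targets of the transcription factor MYC.

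None of the 33 measured members passed the test in the same direction with both siRNAs. NHP2, a listed gene that was not analysed here, is on the study's own list of genes that fell with both siRNAs in HCT116 cells. A change was called where limma gave an adjusted p under 0.05 over all probes. By this measure 0 of 33 members rose with both siRNAs, against 2.84% of all named genes, and 0 fell with both, against 1.93%. With shares this low, a count of 0 among 33 genes does not set the members apart. The named genes were also dimmer than the members, with a median of the mean log2 intensity of 7.25 against 10.34. The shares given here and below are not matched for brightness, and its part in them was not tested. At an unadjusted p under 0.05, 2 members moved in one direction with both siRNAs, IMP3 upwards and DDX56 downwards. The share of all named genes that did so was not computed, so this count does not set the members apart either.

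With siLRH-1 #1, 3 members rose (9.09%, against 11.2% of all named genes) and 2 fell (6.06%, against 12.3%), and 28 did not pass the test. Those that rose were DDX10, IMP3 and BYSL, and those that fell were DDX56 and BOP1. With siLRH-1 #2, 0 members rose (against 4.41%), 3 fell (9.09%, against 3.97%) and 30 did not pass. Those that fell were EMG1, DDX54 and NAT10. At an unadjusted p under 0.05 in limma, 8 members passed with siLRH-1 #1 (24.2%, against 35.8% of all named genes) and 10 with siLRH-1 #2 (30.3%, against 23.4%). Both comparisons use the same siLUC arrays.

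**Figure D1:**
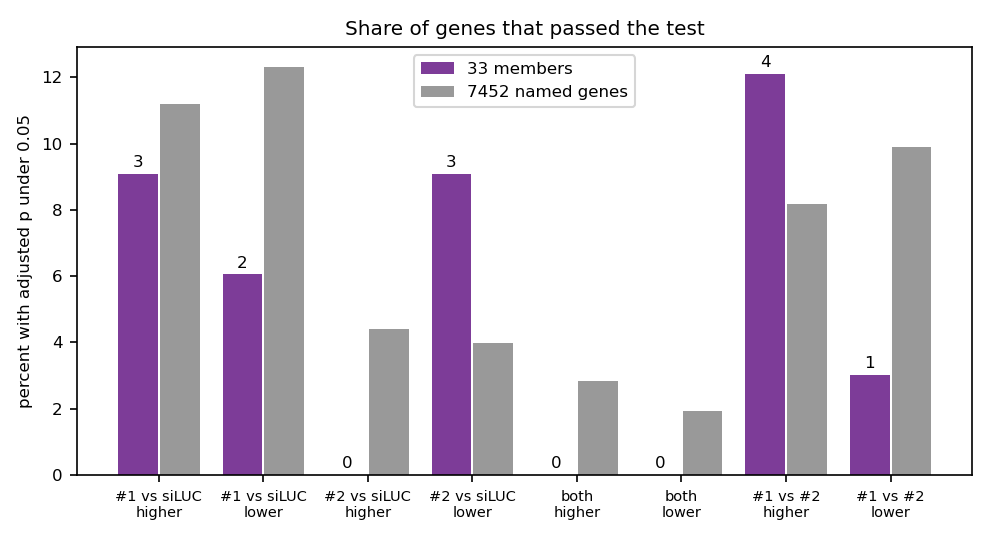
Percent of genes with an adjusted p under 0.05 in limma (vertical axis) for each comparison and direction, for the 33 members (purple, with the number of genes above each bar) and for 7452 named genes with 1 probe each (grey). Members were called at 0% with both siRNAs, and the purple bar exceeds the grey one for the genes that were lower with siLRH-1 #2 and for those higher with siLRH-1 #1 than with siLRH-1 #2.

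The members' changes were small. For siLRH-1 #1 the median log2 fold change was 0.01, the same as over all named genes. For siLRH-1 #2 it was −0.04, against 0.00. Without regard to sign the median change was 0.07 and 0.08, against 0.10 and 0.07. With siLRH-1 #1, 18 members lay above siLUC and 15 below, and with siLRH-1 #2, 10 lay above and 23 below. The 95% interval of the change lay inside 1.5-fold in either direction for 32 members with siLRH-1 #1, the exception being DDX10, and for all 33 with siLRH-1 #2. It lay inside 1.25-fold for 29 and 28 members. ESF1, at a mean log2 intensity of 5.96, lay below every array median, so its interval may not bound a change of its transcript. Averaged over the 33 members, the log2 intensity was 10.15 to 10.21 on the siLUC arrays, 10.18 to 10.23 on those of siLRH-1 #1 and 10.10 to 10.16 on those of siLRH-1 #2. The highest siLRH-1 #2 array and the lowest siLUC array were level at this mean, and the other arrays of these groups did not overlap. Averaged over all named genes, the log2 intensity was 7.77 on each array of these groups. The member mean includes EMG1, NAT10 and DDX54, which had −0.33, −0.29 and −0.30 with siLRH-1 #2, and their part in it was not tested.

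**Figure D2:**
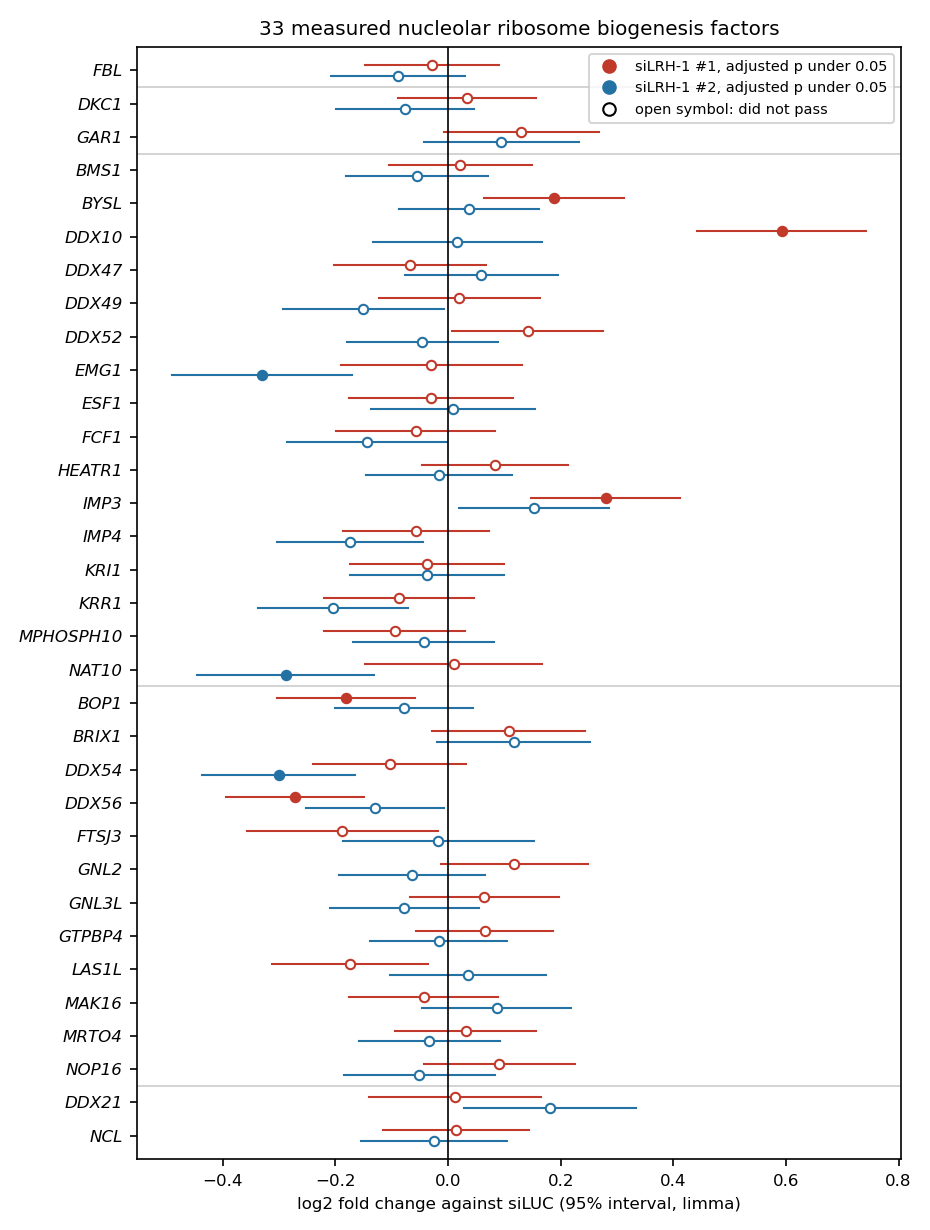
Log2 fold change against siLUC (horizontal axis) of the 33 measured members, grouped by role with box C/D and box H/ACA proteins at the top, then small subunit factors, large subunit factors and abundant nucleolar proteins. Points and lines are the limma estimate and its 95% interval, in red for siLRH-1 #1 and blue for siLRH-1 #2, and filled points passed the test. DDX10 with siLRH-1 #1, at 0.59, lies apart from all other points.

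Among the small subunit factors, 16 of 23 listed genes were measured. Of these, 3 rose and 0 fell with siLRH-1 #1 (11.2% and 12.3% of all named genes), and 0 rose and 2 fell with siLRH-1 #2 (4.41% and 3.97% of all named genes). DDX10, a DEAD-box RNA helicase whose yeast counterpart acts in early processing of the small subunit, showed the largest change of any member. Its log2 intensity was 10.06, 10.06, 10.07 and 9.92 on the siLUC arrays, 10.62, 10.53, 10.82 and 10.52 on those of siLRH-1 #1, and 9.92, 10.21, 10.02 and 10.03 on those of siLRH-1 #2. All siLRH-1 #1 arrays were above all others, and the siLRH-1 #2 arrays overlapped siLUC. The log2 fold change was 0.59 with siLRH-1 #1, a 1.51-fold rise (standard error 0.073, adjusted p = 2.03e-06 from limma). With siLRH-1 #2 it was 0.02 (95% interval −0.13 to 0.17, adjusted p = 0.949 from limma), and the siRNAs differed by 0.58 (adjusted p = 6.29e-06 from limma). The rise with siLRH-1 #1 and the difference passed the test in each of the 25 alternative settings.

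IMP3 belongs to the U3 snoRNP together with IMP4 and MPHOSPH10, with which it forms a complex. It measured 11.41, 11.61, 11.48 and 11.56 with siLUC, 11.73, 11.79, 11.84 and 11.82 with siLRH-1 #1, and 11.81, 11.63, 11.61 and 11.62 with siLRH-1 #2. All 8 knockdown arrays lay above the siLUC arrays, some of those of siLRH-1 #2 only just. IMP3 rose by 0.28 with siLRH-1 #1 (standard error 0.064, adjusted p = 0.00288 from limma). With siLRH-1 #2 the value was 0.15 (unadjusted p = 0.0257, adjusted p = 0.197 from limma), and a difference between the siRNAs was not detected (0.13, 95% interval −0.01 to 0.26). Neither partner passed the test (adjusted p from 0.114 to 0.794, limma). IMP4 stood at −0.06 and −0.17, with its siLRH-1 #2 arrays all below siLUC, and MPHOSPH10 at −0.09 and −0.04.

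BYSL, or bystin, acts late in small subunit assembly. Its values were 9.77, 9.66, 9.76 and 9.68 with siLUC, 9.79, 9.91, 9.98 and 9.94 with siLRH-1 #1, and 9.69, 9.76, 9.79 and 9.77 with siLRH-1 #2. The siLRH-1 #1 arrays were all above siLUC, the lowest of them by a small margin. BYSL rose by 0.19 (standard error 0.060, adjusted p = 0.0309 from limma), against 0.04 for the second siRNA (adjusted p = 0.832). A difference between the siRNAs was not detected (0.15, adjusted p = 0.109 from limma). The call of the rise was lost without any one of siLUC replicates 2 and 4 and siLRH-1 #1 replicates 2, 3 and 4 (adjusted p between 0.0565 and 0.104 in limma).

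EMG1, a methyltransferase that modifies a pseudouridine of the small subunit RNA, fell with siLRH-1 #2. It measured 11.17, 11.27, 11.13 and 11.08 with siLUC, 11.22, 11.07, 11.17 and 11.07 with siLRH-1 #1, and 10.55, 10.93, 10.88 and 10.97 with siLRH-1 #2. All siLRH-1 #2 arrays were below all others, with replicate 1 the lowest. The change was −0.33 with siLRH-1 #2 (standard error 0.078, adjusted p = 0.00998 from limma), against −0.03 for the first siRNA (adjusted p = 0.865), and the siRNAs differed by 0.30 (adjusted p = 0.0101). The fall did not pass without siLUC replicate 2 (−0.29, adjusted p = 0.0546 from limma) or without siLRH-1 #2 replicate 1 (−0.23, adjusted p = 0.0621), and the latter also ended the call of the difference (0.21, adjusted p = 0.0653).

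NAT10, the acetyltransferase that makes N4-acetylcytidine in the small subunit RNA, fell with siLRH-1 #2 as well. Its values were 10.80, 10.95, 10.76 and 10.69 with siLUC, 10.85, 10.76, 11.00 and 10.64 with siLRH-1 #1, and 10.45, 10.51, 10.44 and 10.66 with siLRH-1 #2. The siLRH-1 #2 arrays were all below siLUC, while those of siLRH-1 #1 overlapped both groups. NAT10 had −0.29 with siLRH-1 #2 (standard error 0.076, adjusted p = 0.0227 from limma), against 0.01 for the first siRNA (adjusted p = 0.958 from limma). The siRNAs differed by 0.30 (adjusted p = 0.00922 from limma). The fall lost its call without siLUC replicate 2 (adjusted p = 0.122), siLRH-1 #2 replicate 1 (adjusted p = 0.0948) or siLRH-1 #2 replicate 3 (adjusted p = 0.0716 from limma), and the difference without siLRH-1 #1 replicate 3 (adjusted p = 0.0606).

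The other 11 small subunit factors did not pass the test with either siRNA. Of these KRR1, a processome protein, had the largest value, −0.20 with siLRH-1 #2 (adjusted p = 0.0665 from limma) beside −0.09 with siLRH-1 #1, and its siLRH-1 #2 arrays lay below siLUC. The helicases DDX47, DDX49 and DDX52 had −0.07, 0.02 and 0.14 with siLRH-1 #1 and 0.06, −0.15 and −0.05 with siLRH-1 #2. BMS1, a GTPase of the processome, had 0.02 and −0.05. HEATR1, which acts in both transcription and early processing of the precursor, had 0.08 and −0.02. FCF1 had −0.06 and −0.14, and KRI1 had −0.04 with each siRNA. ESF1, with a mean log2 intensity of 5.96, was the dimmest member and had −0.03 and 0.01.

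**Figure D3:**
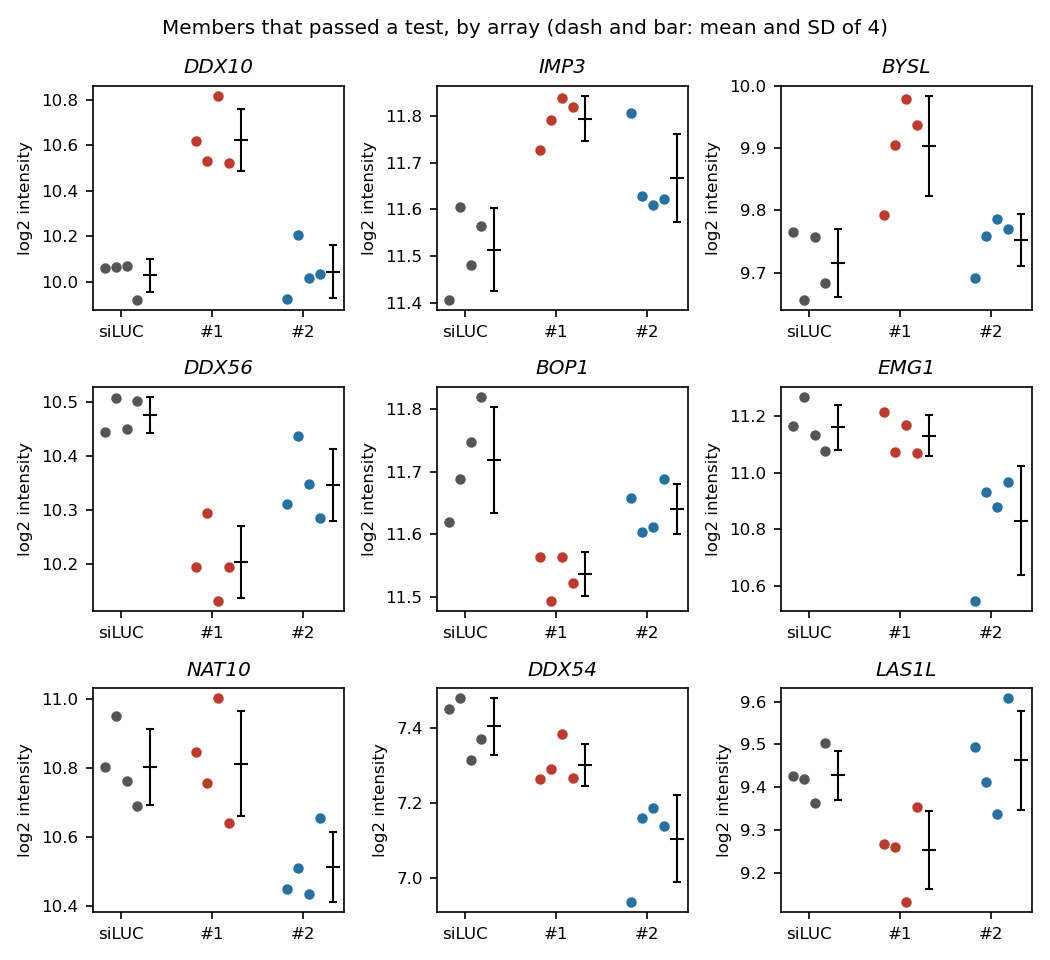
Log2 intensity (vertical axes, each with its own range) on every array of the 9 members that passed at least 1 test, by group. Coloured points are single arrays and the dash with bars is the mean and SD of 4. The siLRH-1 #1 arrays stand above the others for DDX10, and the siLRH-1 #2 arrays stand below the others for EMG1 and DDX54.

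Of the large subunit factors, 12 of 21 listed genes were measured. With siLRH-1 #1, 0 rose and 2 fell (11.2% and 12.3% of all named genes), and with siLRH-1 #2, 0 rose and 1 fell (4.41% and 3.97%). DDX56, a DEAD-box helicase of the nucleolus linked to large subunit assembly, measured 10.44, 10.51, 10.45 and 10.50 with siLUC, 10.19, 10.29, 10.13 and 10.19 with siLRH-1 #1, and 10.31, 10.44, 10.35 and 10.28 with siLRH-1 #2. All 8 knockdown arrays were below siLUC, those of siLRH-1 #1 by more and 1 of siLRH-1 #2 only just. DDX56 fell by 0.27 with siLRH-1 #1 (standard error 0.060, adjusted p = 0.00188 from limma). With siLRH-1 #2 its value was −0.13 (unadjusted p = 0.0390, adjusted p = 0.248 from limma), and a difference between the siRNAs was not detected (−0.14, 95% interval −0.26 to −0.02, adjusted p = 0.135).

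BOP1 is a scaffold of the PeBoW complex, which is required for processing of the large subunit RNA. Its values were 11.62, 11.69, 11.75 and 11.82 with siLUC, 11.56, 11.49, 11.56 and 11.52 with siLRH-1 #1, and 11.66, 11.60, 11.61 and 11.69 with siLRH-1 #2. The siLRH-1 #1 arrays were the lowest of all, and the lowest siLUC array was close to them. BOP1 fell by 0.18 with siLRH-1 #1 (standard error 0.059, adjusted p = 0.0351 from limma), against −0.08 for the second siRNA (adjusted p = 0.563). A difference between the siRNAs was not detected (−0.10, adjusted p = 0.315 from limma). The call of the fall was lost without any one of siLUC replicates 3 and 4 and siLRH-1 #1 replicates 2, 3 and 4 (adjusted p between 0.0522 and 0.124 in limma).

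DDX54 is a further DEAD-box helicase of the nucleolus. It measured 7.45, 7.48, 7.32 and 7.37 with siLUC, 7.26, 7.29, 7.39 and 7.27 with siLRH-1 #1, and 6.93, 7.16, 7.19 and 7.14 with siLRH-1 #2. All siLRH-1 #2 arrays were below all others. DDX54 fell by 0.30 with siLRH-1 #2 (standard error 0.066, adjusted p = 0.00532 from limma), against −0.10 for the first siRNA (adjusted p = 0.336). The difference of 0.20 between the siRNAs was just past the threshold (adjusted p = 0.0496 from limma). It was no longer called in 10 of the 12 fits that left out 1 array, all but those without siLUC replicate 3 or siLRH-1 #2 replicate 3, with adjusted p values up to 0.245.

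LAS1L, a subunit of the endonuclease complex that cuts the spacer next to the large subunit RNA, passed the test only in the direct comparison of the siRNAs. Its values were 9.43, 9.42, 9.36 and 9.50 with siLUC, 9.27, 9.26, 9.13 and 9.35 with siLRH-1 #1, and 9.49, 9.41, 9.34 and 9.61 with siLRH-1 #2. The 2 knockdown groups overlapped narrowly. LAS1L had −0.17 with siLRH-1 #1 (adjusted p = 0.0785 from limma) and 0.04 for the second siRNA (adjusted p = 0.859), a difference of −0.21 (adjusted p = 0.0398). The call was lost without any one of siLRH-1 #1 replicates 1, 2 and 3 and siLRH-1 #2 replicates 1 and 4 (adjusted p between 0.0627 and 0.176 in limma).

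The 3 members that fell with siLRH-1 #2 were, within groups, higher on the set of 5 arrays, which holds 3 of the 4 siLRH-1 #2 arrays, than on the set of 7, by 0.19 for EMG1, 0.18 for NAT10 and 0.15 for DDX54 (adjusted p = 0.309, 0.387 and 0.505 from limma). With the array sets as a block, chosen after seeing the data, the changes with siLRH-1 #2 were −0.43, −0.38 and −0.37, and all 3 were called. In a fit to the 5 arrays alone, with a single siLUC array among them, they were −0.34, −0.42 and −0.32, and none was called.

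In the direct comparison of the siRNAs, 4 of 33 members were higher with siLRH-1 #1 than with siLRH-1 #2 (12.1%, against 8.17% of all named genes) and 1 was lower (3.03%, against 9.89%). The 4 were DDX10, EMG1, NAT10 and DDX54, and the 1 was LAS1L. The median difference between the siRNAs was 0.08 over the members and 0.00 over all named genes, and 23 members lay above 0 and 10 below. At an unadjusted p under 0.05 in limma, 14 members differed (42.4%, against 30.8% of all named genes).

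The other 8 large subunit factors passed no test. FTSJ3, a methyltransferase, had the largest value among them, −0.19 with siLRH-1 #1 (adjusted p = 0.131 from limma) and −0.02 with siLRH-1 #2. BRIX1, which joins early large subunit particles, had 0.11 and 0.12. The nucleolar GTPases GNL2, GNL3L and GTPBP4 had 0.12, 0.06 and 0.06 with siLRH-1 #1 and −0.06, −0.08 and −0.02 with siLRH-1 #2. MAK16 had −0.04 and 0.09, MRTO4 had 0.03 and −0.03, and NOP16 had 0.09 and −0.05.

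The snoRNP proteins that were measured passed no test on their brightest probes. FBL, the methyltransferase of box C/D particles, had −0.03 with siLRH-1 #1 and −0.09 with siLRH-1 #2 (95% intervals −0.15 to 0.09 and −0.21 to 0.03). DKC1, the pseudouridine synthase of box H/ACA particles, had 0.03 and −0.08 (95% intervals −0.09 to 0.16 and −0.20 to 0.05). GAR1, a core protein of the same particles, had 0.13 and 0.09 (adjusted p = 0.208 and 0.518 from limma). Of the abundant nucleolar proteins, NCL, or nucleolin, had 0.01 and −0.02. DDX21, a helicase that links transcription with rRNA processing, had 0.01 with siLRH-1 #1 and 0.18 with siLRH-1 #2 (unadjusted p = 0.0225, adjusted p = 0.181 from limma).

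The 3 probes of GAR1 gave different calls. The dimmer probes both rose with siLRH-1 #1, by 0.26 (adjusted p = 0.0157) and 0.33 (adjusted p = 0.00260 from limma), while the brightest did not pass. On the dimmest of the 3 probes the siLUC arrays measured 8.91, 8.88, 8.90 and 8.71, those of siLRH-1 #1 9.28, 9.01, 9.32 and 9.13, and those of siLRH-1 #2 8.95, 8.93, 9.04 and 8.76. The siLRH-1 #1 arrays were above siLUC there, and only this probe differed between the siRNAs (0.26, adjusted p = 0.0199 from limma). Dimmer probes were also called for DDX52, which rose by 0.22 with siLRH-1 #1 at a mean log2 intensity of 6.45 (adjusted p = 0.0203), and for FCF1, which fell by 0.25 with siLRH-1 #2 (adjusted p = 0.0422 from limma). The second probes of BRIX1, DDX47, GNL3L, KRI1, MPHOSPH10 and NCL passed no test. With the second brightest probe in place of the brightest where a gene has several, 5 members rose with siLRH-1 #1. The share of all named genes with this choice of probe is not given.

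**Figure D4:**
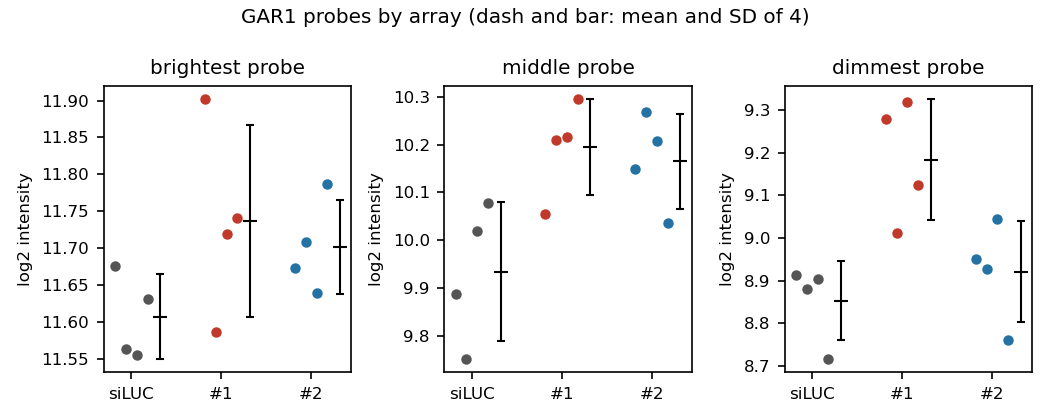
Log2 intensity (vertical axes, each with its own range) of the 3 GAR1 probes on every array, by group, with the mean and SD of 4 as dash and bars. The siLRH-1 #1 arrays overlap siLUC on the 2 brighter probes and lie above siLUC on the dimmest, at 9.01 to 9.32 against 8.71 to 8.91.

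The choice of genes did not use their promoters. In RefSeq promoters (GRCh38.p14, 250 bases before to 50 after the start), the E-box CACGTG, the palindrome that MYC and MAX bind, was found in 10 of the 28 measured members with a promoter entry, which is 35.7%. It was found in 12.5% of the measured named genes with an entry and in 8.77% of all genes with one, and these differences were not tested. The 250 bases before the start had a median GC content of 62.8% in the measured members and 58.0% over all genes with an entry, and the part of GC content in the E-box counts was not tested. A site like that of LRH-1, CAAGGTCA on either strand, was in 0 of the 28 and in 1.32% of the measured named genes. CAAGGCCA, on either strand, was in 1 of the 28, GAR1, and in 2.12%. These are counts of letters in a fixed window, not of binding. The study gives the LRH-1 consensus as YCAAGGYCR, with Y a pyrimidine and R a purine. The LRH-1 strings counted here lacked its first base and ended in A, so sites ending in G were not counted. Median log2 fold changes for the first and second siRNA were 0.01 and −0.05 over the 10 members with an E-box, and 0.02 and −0.03 over the 18 without. Among the 10 were BYSL, which rose with siLRH-1 #1, and NAT10 and DDX54, which fell with siLRH-1 #2. DDX10 and IMP3, which rose with siLRH-1 #1, DDX56, which fell with it, and EMG1, which fell with siLRH-1 #2, had none. LAS1L, called only between the siRNAs, had none either. BOP1, which fell with siLRH-1 #1, had no promoter entry.

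For the 4 members that were higher with siLRH-1 #1 than with siLRH-1 #2, the 100 bases before the start are shown on the strand of the gene, with any E-box in capitals. DDX21 is added as a member with an E-box before the start and no call, at the second of its RefSeq starts. Coordinates are those of GRCh38.p14.
DDX10, chr11:108664969-108665068, plus strand: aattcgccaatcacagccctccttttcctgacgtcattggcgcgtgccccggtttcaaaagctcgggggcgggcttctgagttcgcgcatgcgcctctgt
EMG1, chr12:6970813-6970912, plus strand: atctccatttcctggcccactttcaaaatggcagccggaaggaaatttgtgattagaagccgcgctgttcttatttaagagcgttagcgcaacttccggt
NAT10, chr11:34105529-34105628, plus strand: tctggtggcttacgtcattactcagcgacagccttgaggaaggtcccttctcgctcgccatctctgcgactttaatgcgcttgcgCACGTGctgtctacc
DDX54, chr12:113185479-113185578, minus strand: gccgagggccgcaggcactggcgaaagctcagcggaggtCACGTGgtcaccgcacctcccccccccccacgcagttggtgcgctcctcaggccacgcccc
DDX21, chr10:68956547-68956646, plus strand: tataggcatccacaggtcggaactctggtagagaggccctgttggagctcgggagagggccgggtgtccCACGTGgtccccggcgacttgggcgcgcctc

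Counted from the start, the first base of the E-box lay at −15 in NAT10, −61 in DDX54 and −31 in DDX21. With siLRH-1 #2, NAT10 and DDX54 fell by 0.29 and 0.30, and DDX21 had 0.18.

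Of 210 further genes of ribosome production, 34 were measured. With siLRH-1 #1, 5 rose, 3 fell and 26 did not pass, where 11.2% of all named genes rose and 12.3% fell. With siLRH-1 #2, 0 rose, 2 fell and 32 did not pass, where 4.41% of all named genes rose and 3.97% fell. With both siRNAs in one direction, 0 rose and 0 fell in this model (against 2.84% and 1.93%). By contrast, 2 of the 34 are on the study's own lists of genes changed with both siRNAs in HCT116 cells. EXOSC9 is among those that rose, and the UTP4 probe, named CIRH1A there, among those that fell. These lists also hold genes outside the 34, among them POLR1C, POLR1E, WDR46, UTP14A, SURF6 and PWP1, which fell, and RRP15 and NGDN, which rose. Over the 34 genes the median log2 fold change was −0.01 and −0.03. None of the listed genes of RNA polymerase I or of the large subunit ribosomal proteins was analysed here, and of the small subunit ribosomal proteins only RPS15 and FAU were, with −0.01 and 0.01, and −0.05 and −0.04.

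The exosome, the nuclease complex that trims the precursor RNA, held the largest change among these genes. EXOSC3, a cap subunit that binds RNA, fell by 1.01 with siLRH-1 #1 (adjusted p = 1.50e-09 from limma), against −0.18 for the second siRNA (adjusted p = 0.196), a difference of −0.83 (adjusted p = 8.40e-08). Its second probe gave −1.12 and −0.28 and was called with each siRNA (adjusted p = 3.91e-11 and 0.0138 from limma). EXOSC4 fell by 0.27 and EXOSC9 rose by 0.20 with siLRH-1 #1, and EXOSC2 and EXOSC6 each fell by 0.28 with siLRH-1 #2 (adjusted p between 0.00474 and 0.0383 in limma). With the other siRNA EXOSC4 had −0.08, EXOSC9 0.16, EXOSC2 −0.08 and EXOSC6 0.21, and none passed (adjusted p between 0.0898 and 0.591 in limma). The second EXOSC9 probe, at a mean log2 intensity of 10.70, had 0.08 and 0.10 with the first and second siRNA. It passed no test (adjusted p = 0.522 and 0.491 from limma). UTP4, a processome protein, fell by 0.47 with siLRH-1 #1 (adjusted p = 2.85e-06), against −0.19 for the second siRNA (adjusted p = 0.0683 from limma). RRP36, DDX31, DDX51 and TMA16 rose with siLRH-1 #1, by 0.20, 0.22, 0.20 and 0.20 (adjusted p between 0.0223 and 0.0265 in limma). With siLRH-1 #2 they had −0.02, −0.02, 0.12 and 0.20 and did not pass (adjusted p between 0.0641 and 0.915 in limma). TMA16, dim at a mean log2 intensity of 6.25, had all siLRH-1 #2 arrays above siLUC, and the siRNAs differed by 0.00. The second DDX51 probe fell by 0.28 (adjusted p = 0.00202 from limma), so no direction can be given for that gene.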

How the data were processed

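RNA of HCT116 cells was measured on 12 Illumina HumanHT-12 v4 BeadChips, 4 for each siRNA. The deposited values are log2 intensities. Per the methods, the authors read the chips with GenomeStudio, dropped any probe whose detection p exceeded 0.05 on every sample, and then applied a log2 transform and quantile normalization in Partek (versions not given in the sources used here). The table of non-normalized signals was not used, since the labels give none of its 24 columns to a sample, and the alternative based on it was not run. Probes were named from the platform table, in which 9910 of 16381 probes carried 1 gene symbol, 4 several and 6467 none. Of these, 9904 had a gene ID found in RefSeq, and 0 symbols differed. The table holds few symbols from late in the alphabet, so members absent here are not known to be unexpressed.

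All probes entered 1 model of the 3 groups in limma 3.58.1 in R 4.3.3 (9 residual and 14.6 prior degrees of freedom), and p-values were adjusted over all probes after Benjamini and Hochberg, with calls at under 0.05. The script was tested on simulated data. The comparisons of each siRNA with siLUC share the siLUC arrays. The members and the other gene lists were chosen with earlier results of these data known. Values on every array were given for members that passed a test, and each role group also names its member with the largest change that did not pass. From the study's supplementary gene lists only gene and probe names were taken, and their comparison values were not used. Same-numbered arrays of different groups did not deviate together (12 correlations between −0.04 and 0.04), so replicate numbers were not used as pairs. Motifs were counted in RefSeq promoters (GRCh38.p14) with pandas 2.3.3 in Python 3.11.15. The figures were drawn with matplotlib 3.10.9. Of the 33 members, 28 had a promoter entry.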

Additional observations from a re-analysis of the deposited data

Results flagged for a closer look

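Members that differed between the siRNAs in the direct comparison of limma were flagged. The log2 difference, siLRH-1 #1 minus siLRH-1 #2, was 0.58 for DDX10, 0.30 for EMG1, 0.30 for NAT10, 0.20 for DDX54 and −0.21 for LAS1L. For the first of these the siRNA groups were 10.52 to 10.82 and 9.92 to 10.21.

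In 4 of 99 groups of 4 arrays, 1 array stood away from the other 3, by its gap to the nearest array divided by the range of the group. Chance flags about 5% of groups. The siLUC replicate 4 array was low for DDX10 (9.92 against 10.06 to 10.07, gap over range 0.921). The siLRH-1 #2 replicate 2 array was high for DKC1 (11.64 against 11.50 to 11.52, 0.872), replicate 1 for IMP3 (11.81 against 11.61 to 11.63, 0.904) and replicate 3 for NCL (12.60 against 12.47, 0.952).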

How the results depend on the processing

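The counts of 0 members with both siRNAs, in each direction, and of 0 higher with siLRH-1 #2 held in all 25 alternatives, and none of the 13 called values of single members changed sign. Of their 325 values, 253 stayed past the threshold and 72 did not. With the replicate block the counts were 3 higher and 3 lower for siLRH-1 #1, 3 lower for siLRH-1 #2, and 3 higher and 1 lower between the siRNAs, and the difference of DDX54 between the siRNAs lost its call (adjusted p = 0.0618). For siLRH-1 #1, 3 higher became 5 with the mean of a gene's probes or the second brightest probe and 1 within the set of 5 arrays, and 2 lower became 1 with 8 arrays a comparison, at an adjusted p under 0.01, within the set of 7 arrays or with 2 arrays left out together, and 0 within the set of 5. For siLRH-1 #2, 3 lower became 1 with each probe's own variance, 5 at a mean log2 of at least 7 or with the array sets as a block, and 0 within the set of 5 or with 2 arrays left out together (siLUC replicate 2 and siLRH-1 #2 replicate 1). Between the siRNAs, 4 higher became 1 with own variance, 7 at a mean log2 of at least 7 or with the sets as a block, and 2 at an adjusted p under 0.01, within either set or with both arrays left out, and 1 lower became 0 in each of these but the filter and the block, and also with 8 arrays. With 1 array left out, the counts were 2 to 3 higher and 1 to 2 lower for siLRH-1 #1, 1 to 3 lower for siLRH-1 #2 (1 without siLUC replicate 2 or siLRH-1 #2 replicate 1), and 2 to 6 higher and 0 to 1 lower between the siRNAs. Shares of all named genes are not given for these settings, so the moved counts cannot be read as results about the members. The cause of these moves was not tested. The planned normalization of the non-normalized signals was not run, since its columns match no labels. The fits within sets hold as few as 1 array of a group. The array sets, and the pair left out together, were chosen after seeing the data.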
